A study of Homo sapiens with 4 samples.

Results

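The human miRNA microarrays listed 170 passenger strands, which are the entries whose name starts with hsa- and ends in an asterisk, apart from miR-21*, among 851 human miRNAs. They were followed in HepG2, a human hepatoma cell line, after treatment with 40 µM berberine chloride or with 0.08% DMSO as the solvent control for 2 h or 4 h. One Agilent array was hybridised per condition, so 4 arrays were compared. Because no condition was repeated, the errors given below are the measurement errors of single arrays, and no p-value was computed. Berberine is a plant alkaloid, and the study asked which miRNAs it changes in hepatoma cells.

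A precursor hairpin is cut into a short duplex of 2 strands. One strand, the guide, is loaded into an Argonaute protein and directs silencing of mRNAs that match its seed, the bases near its 5′ end. The other, the passenger or star strand, is usually degraded, and the choice follows the stability of the duplex ends and the first base. Some passengers escape degradation and act as guides of their own, so current names give the arm (5p or 3p) in place of the asterisk. A level of a passenger reflects transcription and processing of its hairpin as well as the fate of the strand.

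The sequences of 8 passengers are shown first because their scaled signal, with the same probes summed on each array, differed by less than 1.2-fold over the 4 arrays. They were taken from RefSeq (GRCh38.p14), are written 5′ to 3′, and have the seed, bases 2 to 8, in capitals.
miR-34b* (miR-34b-5p): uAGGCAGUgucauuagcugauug
miR-17* (miR-17-3p): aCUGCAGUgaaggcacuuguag
miR-30e* (miR-30e-3p): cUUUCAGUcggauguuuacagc
miR-192* (miR-192-3p): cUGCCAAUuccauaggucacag
miR-34a* (miR-34a-3p): cAAUCAGCaaguauacugcccu
miR-340* (miR-340-3p): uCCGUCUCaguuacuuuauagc
miR-500* (miR-500a-3p): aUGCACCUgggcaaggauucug
miR-550* (miR-550a-3p): uGUCUUACucccucaggcacau

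A second set is shown because the changes with berberine turned on its members, namely miR-194*, let-7f-1* and miR-191*, which were lower at 4 h, and let-7b* and miR-431*, whose direction depended on the probes summed. The guide of miR-194* is printed below it for comparison.
miR-194* (miR-194-3p): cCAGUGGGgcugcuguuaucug
miR-194 (miR-194-5p): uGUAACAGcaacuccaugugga
let-7f-1* (let-7f-1-3p): cUAUACAAucuauugccuuccc
let-7b* (let-7b-3p): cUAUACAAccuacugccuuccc
miR-191* (miR-191-3p): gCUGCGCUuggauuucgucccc
miR-431* (miR-431-3p): cAGGUCGUcuugcagggcuucu

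The pair let-7b* and let-7f-1* share the seed UAUACAA and differ at 2 bases outside it, C9U and C13U, where positions are counted from the 5′ end and the base of let-7b* is given first. No other pair among the 35 detected passengers with a RefSeq sequence had the same seed. The passengers miR-150*, miR-148a*, miR-221*, miR-505* and miR-30d* were detected and are named only.

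The arrays differed in brightness. The 75th percentile of the signal of the 197 human miRNAs detected on all 4 arrays was 243 intensity units for control and 169 for treated cells at 2 h, and 225 and 297, respectively, at 4 h, and it was subtracted on the log2 scale before arrays were compared. Liver markers were present, with miR-122, miR-192 and miR-194 detected on all 4 arrays. Of 11 markers of blood, muscle, neurons, endothelium and mesenchyme, 7 were detected on none, miR-145 was detected on all 4, and miR-142-3p, miR-451 and miR-143 were detected only on the berberine 4 h array. The summed signal of these 11 markers was 30.8 and 19.7 in control and treated cells at 2 h, and 29.9 and 57.7 at 4 h. Their part in the results below was not tested.

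Most passengers were below detection in HepG2. The number detected was 35 on the control 2 h array, 21 on the berberine 2 h array, 35 on the control 4 h array and 36 on the berberine 4 h array, so the dimmest array had the fewest. A set of 20 passengers was detected on all 4 arrays, which is 11.8% of the 170. Over all human miRNAs this share was 23.1%, and over the 681 miRNAs that are not members it was 26.0%. A further 20 were detected on 1 to 3 arrays, so 40 (23.5%) were seen at least once, against 29.6% of all human miRNAs, and 130 were seen on none. Of the 20 that were seen on some arrays, 12 were missing from the berberine 2 h array alone. All passengers together held 0.311% to 0.450% of the human miRNA signal of an array.

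The unscaled signals of the 20 passengers spanned more than an order of magnitude. Signals are not ranked between miRNAs, since probes differ in efficiency. The miR-34 family, whose members are targets of p53, gave miR-34b* and miR-34a*. The signal of miR-34b* was 87.2 in control cells and 64.1 in treated cells at 2 h, and 83.9 and 120.2, respectively, at 4 h. That of miR-34a* was 22.1, 12.1, 14.3 and 20.04 in the same order. Both followed the brightness of the arrays, with miR-34b* varying by 1.13-fold after scaling and miR-34a* by 1.43-fold, or 1.14-fold with the same probes summed.

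The miR-17-92 cluster, a set of growth-promoting miRNAs made from 1 transcript on chromosome 13, gave 3 passengers. The signal of miR-17* (hairpin at chr13:91350605-91350688) was 67.6 and 45.1 in control and treated cells at 2 h, and 61.0 and 80.0 at 4 h. That of miR-20a* (chr13:91351065-91351135) was 17.1, 9.25, 15.7 and 17.3, and that of miR-19b-1* (chr13:91351192-91351278) was 7.88, 4.36, 6.89 and 8.79, in the same order. After scaling, miR-17* varied by only 1.04-fold over the 4 arrays, the narrowest range of the 20 by the deposited signal. The corresponding ranges of miR-20a* and miR-19b-1* were 1.28-fold and 1.25-fold, and the latter was 1.37-fold with the same probes summed.

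The liver-enriched cluster MIR192 and MIR194-2 on chromosome 11 gave miR-192* (chr11:64891137-64891246) and miR-194* (chr11:64891355-64891439). The signal of miR-192* was 32.3 and 20.5 in control and treated cells at 2 h, and 26.8 and 35.2 at 4 h, a 1.12-fold range after scaling. That of miR-194* was 9.16, 5.90, 11.7 and 6.15 in the same order, a 2.50-fold range. The passengers of these neighbouring hairpins thus differed in the range of their signals over 4 single arrays, and the low value of miR-194* at 4 h is taken up below.

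The other steady members were miR-30e*, miR-500*, miR-550* and miR-340*. The signal of miR-30e* was 34.7 and 22.8 at 2 h and 30.8 and 42.1 at 4 h, control first, and varied by 1.06-fold after scaling. The corresponding values of miR-500* were 24.9, 18.3, 21.3 and 29.7 (1.15-fold), and those of miR-550* were 19.5, 13.7, 17.1 and 26.6 (1.18-fold). For miR-340* the signals were 15.0, 7.08, 9.60 and 18.5. Its range of 1.49-fold narrowed to 1.04-fold once the same 2 probes were summed on each array. In all, 8 of the 20 passengers (40.0%) stayed within 1.2-fold with the same probes summed, against 53.7% of the 177 other miRNAs detected on all 4 arrays and 35.3% of the 85 of these whose level lay within the range of the passengers.

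**Figure D1:**
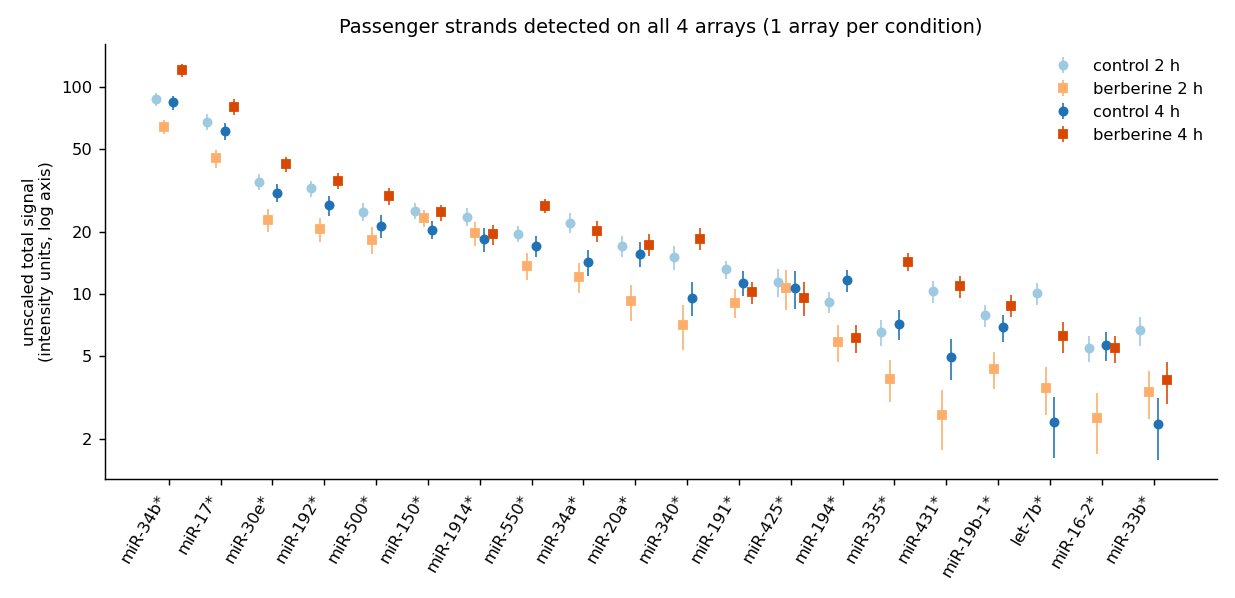
Unscaled total signal (intensity units, log axis) of the 20 passenger strands detected on all 4 arrays. Points are single arrays (circles for control, squares for berberine), bars are the measurement error of the array, and names are ordered by mean signal. The berberine 4 h square lies highest and the berberine 2 h square lowest for miR-34b*, miR-17*, miR-30e* and miR-192*, as the brightness of the arrays does, while the 4 signals of miR-150* lie between 20.4 and 25.2.

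A group of 7 passengers did not follow the brightness of the arrays. With the same probes summed and no scaling, the signals of miR-150*, miR-1914*, miR-425*, miR-191*, miR-431*, miR-33b* and let-7b* moved by 1.15-fold to 1.31-fold over the 4 arrays, whereas the 75th percentile moved by 1.76-fold. The threshold of 1.5-fold that set these 7 apart was chosen after the values were seen, and 32 of the 85 other miRNAs of like level (37.6%) also lay under it, against 7 of 20 passengers (35.0%). For miR-150* the summed signals were 25.2 and 24.3 in control and treated cells at 2 h, and 21.9 and 24.8 at 4 h. For let-7b* they were 10.1 and 10.1 at 2 h, and 8.27 and 8.04 at 4 h. Their G+C content, known for 6 of the 7, ran from 50.0% to 77.3% with a median of 63.6%, and that of the other 13 ran from 36.4% to 59.1% with a median of 45.5%. The guide was detected on no array for 4 of the 7 (miR-150*, miR-1914*, miR-431* and miR-33b*) and for 1 of the other 13 (miR-34b*). A signal that is flat before scaling is by arithmetic highest on the dimmest array and lowest on the brightest array after scaling, which applies to the ratios of these members below.

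The passengers were then set against their guides, the miRNAs of the same name without the asterisk. A guide was on the array for 167 passengers, of the same name for 142 and under the name without the hairpin number for 25. The division is by name alone. Of the passengers with a guide of the same name, miR-550* itself maps to 2 hairpins. A share can therefore set a passenger against a guide that is also made from other hairpins. Of the 95 passengers whose guide was detected on all 4 arrays, 12 were themselves detected on all 4, 19 on some and 64 on none. Of the 61 whose guide was detected on none, 5 passengers were detected on all 4 arrays, namely miR-34b*, miR-33b*, miR-150*, miR-1914* and miR-431*, and miR-589* was detected on 1. The remaining 11 had a guide detected on 1 to 3 arrays, and miR-500*, miR-550* and miR-191* among them were detected on all 4.

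A bright guide did not by itself bring a measurable passenger. When the 95 guides were divided at a mean signal of 171, the passenger was detected at least once for 22 of the 48 brighter entries and for 9 of the 47 dimmer ones. The brightest guides whose passenger was detected on no array were miR-19b (mean signal 2229, passenger miR-19b-2*), miR-19a (1294, miR-19a*), miR-29b (897, miR-29b-2*), miR-26b (718, miR-26b*), miR-135b (651, miR-135b*) and miR-16 (628, miR-16-1*). Among the 11 guides detected on all 4 arrays that have 2 listed passengers, both passengers were undetected for 5 and the numbers of arrays differed for 6. The strand miR-19b-1* was detected on all 4 arrays and miR-19b-2* on none, and likewise miR-16-2* on all 4 and miR-16-1* on none, with their guide in common.

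The signal of miR-34b* was set beside 2 relatives, since its guide miR-34b gave none. The seed of miR-34b* (AGGCAGU) shares 6 bases with that of miR-34a (GGCAGUG), shifted by 1 position, and the longest run of bases common to both mature strands is 9. Nearer the 3′ end both strands also hold UUAGCUG, so the longest run alone does not measure how alike they are. The guide miR-34a gave 1330 and 926 in control and treated cells at 2 h, and 1192 and 1620 at 4 h. The signal of miR-34b* was 6.56%, 6.92%, 7.04% and 7.42% of it, in that order. By contrast miR-34c-5p, from the hairpin next to that of miR-34b, was detected on no array. Whether RNA of miR-34a adds to the signal of the miR-34b* probes was not tested.

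A similar comparison was made for miR-30e* and miR-500*. The mature strand of miR-30a* differs from miR-30e* by A18G alone, yet it was detected on no array, and its guide miR-30a was detected only on the berberine 4 h array, at 4.24. The strand miR-500* differs by 1 mismatch, with a shift of 1 base, from miR-501-3p and miR-502-3p. Both were detected on all 4 arrays, between 5.31 and 7.49 for miR-501-3p and between 8.63 and 18.6 for miR-502-3p, and whether their RNA adds to the signal of miR-500* was not tested.

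The arm shares, the signal of the passenger as a percentage of the signal of both arms, were low for most pairs. They are shares of signal and not of molecules. For the 12 pairs with both arms detected on all 4 arrays the median share was 3.27%, and the median share of a pair over the arrays ran from 0.299% (miR-19b-1*) to 18.6% (miR-340*). In 6 pairs, miR-192*, miR-34a*, miR-194*, miR-16-2*, miR-20a* and miR-19b-1*, the share was under 3% on each array. It was 4.67%, 4.56%, 5.46% and 4.73% for miR-17* on the control 2 h, berberine 2 h, control 4 h and berberine 4 h arrays.

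Higher shares were found for 4 pairs. In the array order above, miR-30e* held 10.6% ± 1.1, 9.70% ± 1.3, 11.3% ± 1.3 and 10.72% ± 1.1 (measurement error of the array), and the error intervals of all 4 overlapped. The share of miR-340* was 21.6% ± 2.6, 16.4% ± 3.6, 17.1% ± 2.9 and 20.03% ± 2.2, and that of miR-335* was 15.1% ± 2.2, 15.8% ± 3.5, 19.3% ± 3.1 and 21.6% ± 2.3. For let-7b* it was 30.0% ± 3.3, 14.9% ± 3.7, 9.73% ± 3.0 and 17.3% ± 2.8 by the deposited signal, and 30.0%, 33.3%, 27.1% and 21.2% with the same probes summed. The wide spread of let-7b* thus came with the number of its 4 probes that entered the sum, which was 4, 1, 1 and 3.

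In 3 pairs the strand named as passenger carried most of the signal. The share of miR-500* was 83.5% ± 2.8, 84.1% ± 3.7 and 85.2% ± 2.5 on the control 2 h, control 4 h and berberine 4 h arrays, and its guide was not detected on the berberine 2 h array. For miR-550* it was 66.8% ± 3.4 on the control 2 h array and 81.2% ± 2.9 on the berberine 4 h array. For miR-191* it was 78.8% ± 4.6 on the berberine 4 h array, the only one on which miR-191 was detected, at 2.75. The signal of miR-191 was therefore a single faint value. Its neighbour at the same locus on chromosome 3, miR-425, gave 278, 185, 242 and 352, and the share of miR-425* was 3.96%, 5.46%, 4.24% and 2.66%.

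**Figure D2:**
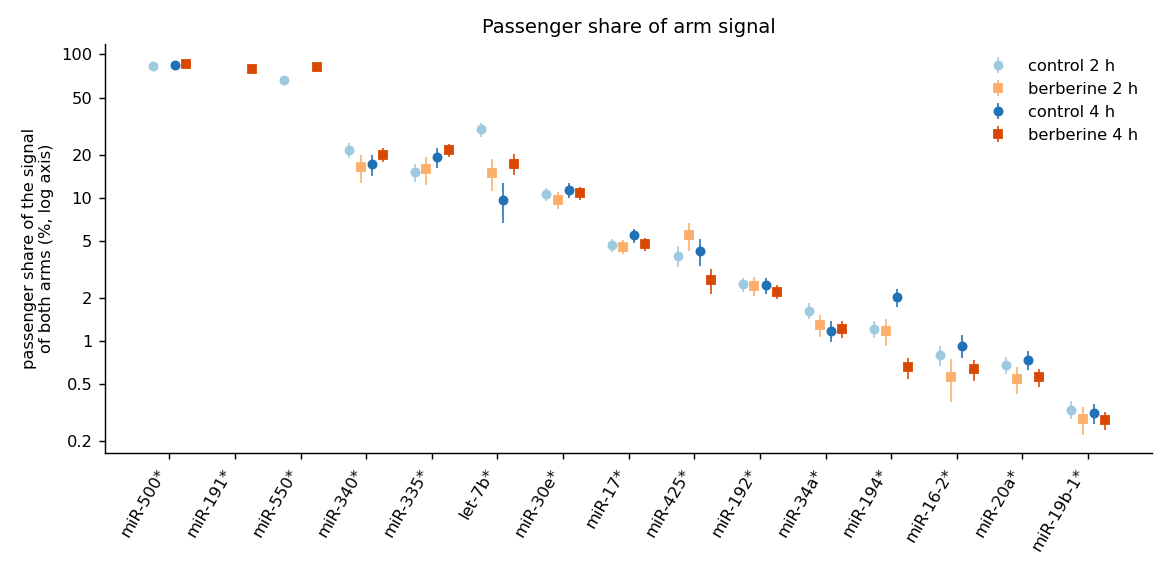
Passenger share of the signal of both arms (%, log axis) for the 15 passengers detected on all 4 arrays whose guide was detected on at least 1. Points are single arrays with measurement errors, and a missing point means that the guide was not detected there. miR-500*, miR-191* and miR-550* lie above 50%, and miR-16-2*, miR-20a* and miR-19b-1* lie under 1% on each array.

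The first treatment comparison asked which passengers changed after 2 h of berberine. The 20 passengers detected on both arrays had a median log2 ratio of -0.12, and 14 were lower with berberine, against a median of -0.02 over all 197 human miRNAs. The split depended on the scaling, with 11 of 20 lower after quantile normalization, 20 without scaling and 0 with the percentile taken over all human miRNAs. When the same probes entered the sum on each array, the median was 0.07 for the passengers and 0.01 for all, and 8 of the 20 were lower. The deposited signal adds up only the probes detected on that array, and the set of probes differed between the 2 arrays for 8 of the 20 passengers (40.0%), compared with 16.2% of all human miRNAs. The sign turned in 6 of the 20.

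No passenger was more than 2-fold higher at 2 h (1 of 197 human miRNAs was, 0.508%) and 1 was more than 2-fold lower (1 of 197, 0.508%). It was miR-431*, from the imprinted 14q32 region, which read 10.3 ± 1.2 in control and 2.61 ± 0.83 in treated cells. Its log2 ratio was -1.45 ± 0.49 (SE), and it became 0.40 ± 0.31 with the same probes summed. All 4 of its probes were detected in control cells and 1 in treated cells, where the other 3 read 2.44, 2.19 and 2.21 and missed the detection limit of 3 errors. With the same probes summed no passenger passed 2-fold at 2 h, and 0.508% of all human miRNAs did.

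Judged by the 95% measurement range, the ratio with its SE widened to 95%, 1 passenger was higher and 2 were lower at 2 h, as were 7.11% and 2.03% of all human miRNAs. The higher one was miR-150*, a strand whose guide is typical of lymphocytes, at 0.41 ± 0.19, or 0.47 ± 0.19 with the same probes. It was outside this range by both summaries, as were 7.11% of all human miRNAs in that direction. Without scaling its ratio was -0.12, since its signal went from 25.2 to 23.2 while the array became dimmer, so its direction rests on the scaling. The lower ones were miR-431* and let-7b*, the latter at -0.99 ± 0.42 from signals of 10.1 ± 1.2 and 3.53 ± 0.93. Neither was lower by both summaries, a call that 0.508% of all human miRNAs met, and let-7b* stood at 0.52 ± 0.30 with the same probes.

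**Figure D3:**
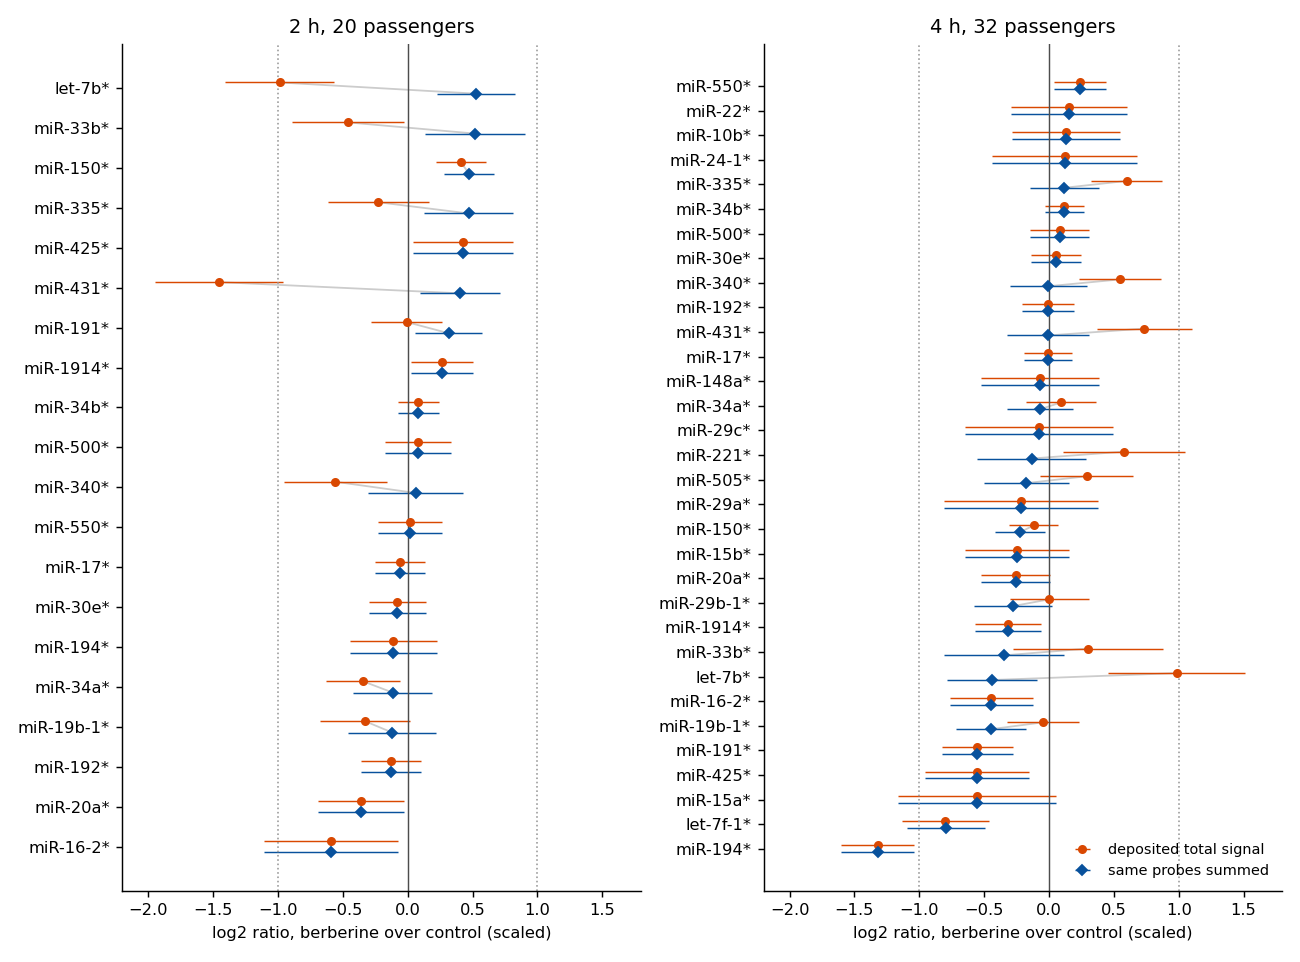
Log2 ratio of berberine over control for the 20 passengers detected on both arrays at 2 h (left) and the 32 at 4 h (right). Circles are the deposited total signal, diamonds the sum of the same probes on each array, bars are 1 SE from the measurement errors, dotted lines mark 2-fold, and names are ordered by the diamonds. Grey lines join the 2 summaries of a passenger, and they are long for let-7b* and miR-431*, while miR-194* lies past 2-fold at 4 h by both.

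At 4 h the second comparison covered 32 passengers. Their median log2 ratio was -0.002, with 16 lower with berberine, against a median of 0.11 over all 218 human miRNAs measured on both arrays. With other scalings 24 (median), 20 (quantile), 27 (percentile over all human miRNAs) or 6 (no scaling) of the 32 were lower, and the passengers' median minus that of all human miRNAs was -0.11, or -0.10 after quantile normalization. Summing the same probes gave a median of -0.15, and 24 of the 32 (75%) were then lower. By that summary 56 of the 186 other miRNAs (30.1%) were lower, and 31 of the 85 of like level. These 85 were matched in level to the 20 passengers detected on all 4 arrays, and not to the rest of the 32, some of which were dimmer. The set of probes differed between the arrays for 11 of the 32 passengers (34.4%) and for 17.0% of all human miRNAs, and the sign turned in 8. The berberine 4 h array was the brightest, and 6 of the 32 passengers had a lower deposited signal there than on the control 4 h array before scaling. The part of array brightness in this shift was not tested.

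No passenger was more than 2-fold higher at 4 h (1 of 218 human miRNAs was, 0.459%) and 1 was more than 2-fold lower (1 of 218, 0.459%), which was miR-194*. It read 11.7 ± 1.4 in control and 6.15 ± 0.95 in treated cells, a log2 ratio of -1.32 ± 0.28, or 2.50-fold lower. The same 2 of its 4 probes were detected on all 4 arrays, so summing the same probes gave the same value. With the same probes 0.917% of all human miRNAs passed 2-fold in either direction at 4 h. The first of these probes read 3.42, 2.85, 5.23 and 2.64 on the control 2 h, berberine 2 h, control 4 h and berberine 4 h arrays, and the second read 5.74, 3.04, 6.43 and 3.52. Both were lower with berberine than with the control at each time before scaling, and after scaling miR-194* stood at -0.11 ± 0.34 at 2 h.

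The size of the change in miR-194* depended on the control array it was set against. The control 4 h array was 0.46 ± 0.24 above the control 2 h array, and the berberine 4 h array was -0.86 ± 0.28 relative to the control 2 h array. Its log2 ratio at 4 h remained negative without scaling, at -0.92, and with the normexp background correction, at -0.68, but neither passed 2-fold. Normexp adds an offset of 50 to each signal, which draws dim signals together before scaling. The passengers' median at 4 h fell further below 0 with it, so the normexp value cannot show that the fall of miR-194* was kept. The guide miR-194, an miRNA of liver and gut epithelium, went from 566 to 931, a log2 ratio of 0.32 ± 0.16. miR-192*, from the neighbouring hairpin, stood at -0.01 ± 0.20, and its guide miR-192 at 0.15 ± 0.15.

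**Figure D4:**
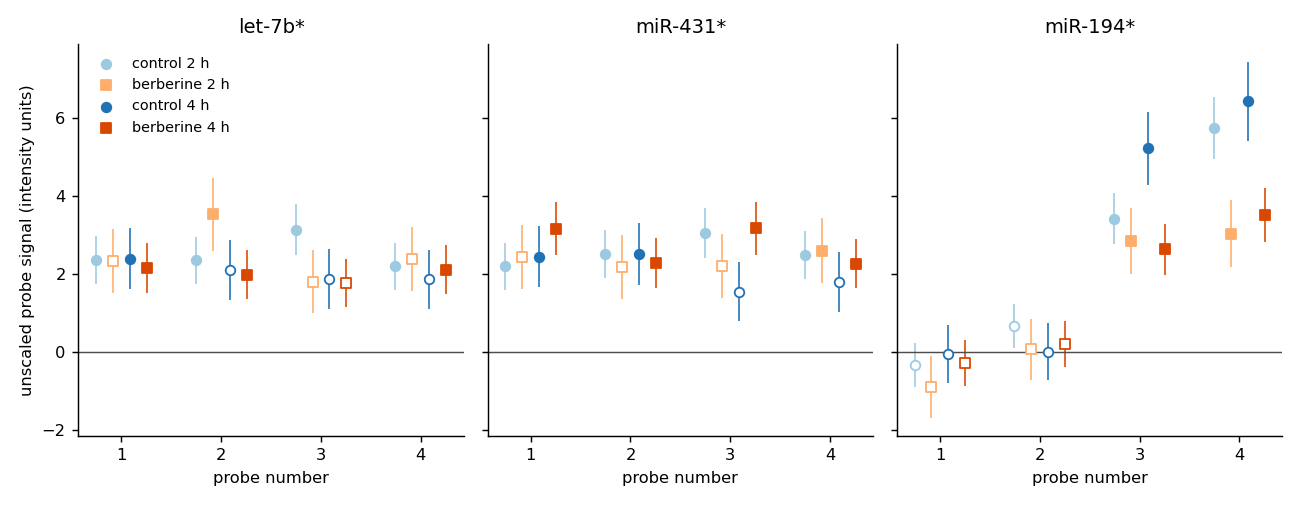
Unscaled signal of each of the 4 probes (intensity units) of let-7b*, miR-431* and miR-194* on the 4 arrays. Circles are control and squares berberine arrays, filled where the probe was detected (above 3 times its error) and open where it was not, and bars are the error of the probe. The probes of let-7b* and miR-431* lie between 1.55 and 3.53, and differ more in whether they were detected than in signal, while probes 3 and 4 of miR-194* were detected on each array.

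By the 95% measurement range, 2 passengers were higher and 3 were lower at 4 h, as were 8.72% and 2.75% of all human miRNAs. The 3 that were lower held with the same probes summed, a call met by 2.75% of all human miRNAs, and none of the higher ones did, against 5.05%. Besides miR-194*, the lower ones were let-7f-1* and miR-191*. The strand let-7f-1*, from a let-7 hairpin of chromosome 9 whose guide is a known growth suppressor, had signals of 8.63 ± 1.4 and 6.54 ± 1.1, a log2 ratio of -0.80 ± 0.33, and -0.80 ± 0.30 with the same probes. Without scaling its ratio was -0.40. Relative to the control 2 h array, the berberine 4 h array was -0.70 ± 0.31, or -0.35 with the same probes. At 2 h let-7f-1* was detected in control cells alone, but the same 4 probes summed to 8.68 in these and to 9.03 in treated cells. miR-191* had signals of 11.3 ± 1.6 and 10.2 ± 1.3 and a log2 ratio of -0.55 ± 0.27 by both summaries, or -0.15 without scaling. The same probes were detected on both arrays, so its summaries could not differ. It was also among the 7 passengers that did not follow array brightness, so the size of its fall rests on the scaling.

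The higher ones at 4 h were miR-335* and miR-431*. For miR-335* the control cells gave 7.17 ± 1.2, from 2 of its 4 probes, and the treated cells 14.3 ± 1.4, from all 4. Its log2 ratio of 0.60 ± 0.27 became 0.12 ± 0.27 with the same probes. That of miR-431* went from 0.73 ± 0.37 to -0.01 ± 0.32. The largest rise of all was that of let-7b*, at 0.98 ± 0.53 from signals of 2.40 ± 0.78 and 6.26 ± 1.1, and it became -0.44 ± 0.35.

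Across the 2 times, 10 of the 20 passengers detected on all 4 arrays had the same sign and 10 the opposite sign, or 11 and 9 with the same probes. No passenger lay outside the 95% measurement range in the same direction at both times. The remaining members of the 20 stayed within it at both times by the deposited signal. They were miR-34b* (0.08 ± 0.16 and 0.12 ± 0.15 at 2 h and 4 h), miR-17* (-0.06 ± 0.19 and -0.01 ± 0.18), miR-30e* (-0.08 ± 0.22 and 0.05 ± 0.19), miR-192*, miR-500*, miR-550*, miR-34a*, miR-20a*, miR-19b-1*, miR-16-2*, miR-340*, miR-1914*, miR-425* and miR-33b*. The 95% measurement range of miR-34b* spanned -0.23 to 0.39 for the 2 h ratio, and -0.18 to 0.42 for the 4 h ratio.

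The control arrays showed what differed without berberine, although time and array cannot be told apart there. Between the control 4 h and control 2 h arrays, 3 of 32 passengers differed by more than 2-fold, against 2.28% of 219 human miRNAs. They were let-7b* (3.89-fold lower), miR-33b* (log2 ratio -1.39 ± 0.52) and miR-29b-1* (1.87 ± 0.49). None did once the same probes were summed, and 0% of all human miRNAs did, with log2 ratios of -0.18, -0.23 and 0.85 for these 3. By the deposited signal the 3.89-fold difference of let-7b* between the controls exceeded each ratio with berberine, whereas with the same probes summed the largest difference between the controls, that of miR-29b-1*, was smaller than the change of miR-194* at 4 h.

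The passenger relative to its guide needs no scaling between arrays, but it is not free of array brightness. A passenger with a flat signal falls relative to a guide that follows the brightness when the array is brighter. The part of array brightness in the changes below was not tested. At 2 h the change of passenger over guide had a median log2 of -0.19 over 12 pairs, of which 10 were negative, and -0.03 with the same probes, of which 8 were. At 4 h it was -0.16 over 25 pairs, of which 17 were negative, and -0.28 with the same probes, of which 23 were. Between the controls, 4 h over 2 h, it was 0.10 over 25 pairs, and 0.14 with the same probes, of which 20 were positive. The last 2 comparisons share the control 4 h array, once as the denominator and once as the numerator, so their opposite signs are not independent. Without that array, with the berberine 4 h array set against the control 2 h array, 25 of 35 passengers were lower on the scaled signal of the same probes, with a median of -0.17, against 49.8% of all 233 human miRNAs measured on both and 54.1% of the 85 of like level. Those 85 were matched in level to the passengers detected on all 4 arrays, and not to all 35.

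Of the 25 pairs, 2 lay outside the 95% measurement range at 4 h, and they did so by both summaries. The change of miR-194* over miR-194 was -1.64 ± 0.32, as its share went from 2.02% ± 0.28 in control to 0.656% ± 0.11 in treated cells. The share at 2 h was 1.22% ± 0.16 and 1.17% ± 0.25. This pair was matched by name. While miR-194* maps to MIR194-2, the hairpins that make miR-194 were not looked up, so its signal may include other hairpins. The change of let-7f-1* over let-7f was -0.85 ± 0.37, as its share went from 1.60% to 0.893%. Between the controls, 4 h over 2 h, 2 of 25 pairs also lay outside this range by both summaries. They were miR-194* over its guide, at 0.74 ± 0.28, and miR-29b-1* over miR-29b. The latter stood at 2.01 ± 0.51, or 0.99 ± 0.41 with the same probes.

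**Figure D5:**
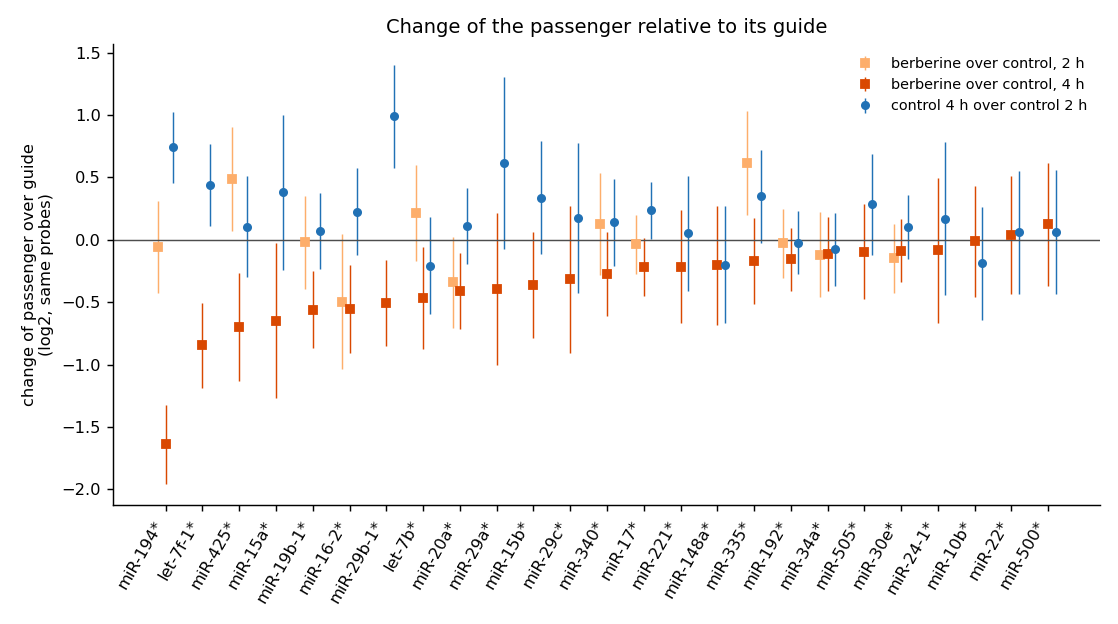
Change of the passenger relative to its guide (log2, same probes summed) for the 25 pairs measured at 4 h. Orange squares are berberine over control at 2 h (light) and 4 h (dark), blue circles are control 4 h over control 2 h, bars are 1 SE, and pairs are ordered by the 4 h value. At 4 h, 23 of 25 lie below 0, and 20 of 25 of the control comparison, which shares the control 4 h array, lie above 0.

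Where a passenger was detected in control or in treated cells but not in both, its change was given as a bound, with the undetected side set to the higher of the lowest detected signal on that array and the passenger's own same-probe signal. At 2 h, 15 of the 170 were detected on the control array alone and 1 on the berberine array alone, as were 4.47% and 0.235% of all human miRNAs. Of the 15, which were missing from the dimmest array, 8 had a bound above 1 and none exceeded 1.37-fold lower (miR-7-1*). The strand miR-589* was at least 3.44-fold higher. In the same-probe sums, miR-221* gave 9.89 ± 1.7 in control and 6.13 ± 2.3 in treated cells, and 14 of the 15, all but miR-130b*, stayed inside the 95% measurement range of the difference. For miR-589* 1 of 4 probes gave 4.28 ± 0.99 in treated and -0.04 ± 0.56 in control cells, and its other probes were detected on none. On the control and berberine 4 h arrays that probe read -0.11 and -0.23. The value of miR-589* thus rests on 1 probe of 1 array.

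At 4 h, 3 were detected on the control array alone and 4 on the berberine array alone, as were 0.94% and 2.82% of all human miRNAs. The largest bound was that of miR-30d*, at least 3.49-fold lower, from 1 of its 4 probes. That probe read 5.25 on the control 4 h array, 0.910 and 0.677 in control and treated cells at 2 h, and 0.586 on the berberine 4 h array. The value of miR-30d* thus rests on 1 probe of 1 control array. The 4 seen on the berberine array alone, miR-7-1*, miR-130b*, miR-200b* and miR-106b*, had 1 probe detected each and differed by less than 1 error with the same probes.

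Detection by family is given beside the 11.8% of all passengers detected on all 4 arrays, and differences between families were not tested. In the let-7 family, 1 of 9 passengers was detected on all 4 arrays and 1 on some, although all 8 guides were on all 4. For the miR-17-92 cluster and its paralogs it was 3 of 15 on all 4 and 1 on some, with 11 of 12 guides on all 4. In the miR-29 family, which restrains collagen genes, 3 of 4 passengers were on some arrays and none on all 4. In the miR-23/27/24 clusters it was 2 of 6 on some, in the miR-15/16 family 1 of 7 on all 4 and 2 on some, and in the miR-30 family 1 of 6 on all 4 and 1 on some. Of 12 passengers of liver or lipid-linked hairpins, 3 were on all 4 (miR-192*, miR-194* and miR-33b*, whose hairpin lies in the SREBF1 gene) and 2 on some. Of 11 from 14q32 only miR-431* was detected, with none of the 11 guides on all 4. Of 11 of other lineages none was on all 4 and 2 were on some (miR-10b* and miR-200b*).

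In no family did more than 1 member pass 2-fold at either time. The median log2 ratio at 4 h, with the same probes summed, was -0.26 for the 3 measured members of the miR-17-92 group. It was -0.45 for 3 of the miR-15/16 family, -0.21 for 3 of the miR-29 family and -0.07 for 5 of the liver group. Over all 32 passengers it was -0.15, and over all human miRNAs 0.09. Groups with fewer than 3 measured members were left out.

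The arms and first bases of the detected passengers were counted last. Of the 40 detected, 26 came from the 3p arm and 14 from the 5p arm. Of the 20 detected on all 4 arrays, 18 were 3p, with miR-34b* and miR-19b-1* as the exceptions, and of those seen on 1 to 3 arrays 8 were 3p and 12 were 5p. Of the 35 with a sequence, 14 started with C, 9 with A, 8 with U and 4 with G, whereas 22 of their 32 different guides with a sequence started with U. Among all RefSeq human mature strands 36.8% started with U. Lengths ran from 21 to 24 bases.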

How the data were processed

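Total RNA of HepG2 cells was profiled on 4 Agilent human miRNA arrays, 1 for each of 4 conditions. The authors deposited Feature Extraction 10.7.3.1 output, in which each intensity is background-subtracted and not scaled between arrays. The total signal of a miRNA is the sum of its probes above 3 times their error (checked within 0.001%), and an undetected miRNA is written as 0.1. A deposited table of the authors' own ratios of berberine over control was not used.

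Here log2 total signals were reduced by the 75th percentile of each array over the 197 human miRNAs that every array detected. Ratios were formed where both arrays detected the miRNA, with an SE from the deposited errors. A change was called past 2-fold, and the SE gave a 95% measurement range (normal quantile). "Same probes" sums all probes detected on at least 1 array. No p-value was computed, and precision is limited by having 1 array per condition. A bound divides the scaled signal by the higher of the other array's lowest detected signal and the miRNA's own same-probe signal there. Ratios were tested on simulated data in which every miRNA was detected. That setting does not cover the ratios of dim passengers whose probes lie near the detection limit.

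Members and lists were chosen with earlier results of these data known. Named were all passengers detected on all 4 arrays, those past 2-fold or outside the 95% range by both summaries, the largest changes, the largest bounds and their guides. Python 3.11.15, pandas 2.3.3, R 4.3.3 and limma 3.58.1 (normexp, on median spot signals, offset 50) were used. The alternatives tried were other scalings, probe summaries, filters, guides and a 1.5-fold threshold.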

Additional observations from a re-analysis of the deposited data

Results flagged for a closer look

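For 10 of the 20 passengers detected on all 4 arrays, berberine over control was above 0 at one time and below 0 at the other on the log2 scale. No test of these differences was possible with single arrays, so they were not tested. The 4 h ratio minus the 2 h ratio was 2.19 for miR-431*, 1.97 for let-7b*, 1.11 for miR-340*, 0.82 for miR-335*, 0.76 for miR-33b*, 0.44 for miR-34a* and 0.13 for miR-30e*, and it was -0.98 for miR-425*, -0.58 for miR-1914* and -0.53 for miR-150*. With the same probes summed, the difference became -0.41 for miR-431*, -0.96 for let-7b*, -0.07 for miR-340*, -0.35 for miR-335* and -0.87 for miR-33b*, so the sign of the difference turned for these 5. That of miR-34a* became 0.05, that of miR-150* became -0.70, and those of miR-425*, miR-1914* and miR-30e* stayed at -0.98, -0.58 and 0.13.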

How the results depend on the processing

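No paired analysis was possible because the conditions compared at each time had 1 array each. A fit over both times with time as a block was not run. The median log2 ratio of the passengers at 2 h was -0.64 without scaling, 4.99 with the 75th percentile taken over all human miRNAs and 0.37 after normexp, and at 4 h it was 0.40, -0.41 and -0.54. The second scaling reached undetected miRNAs on the berberine 2 h array, where 199 of 851 were detected. Counts past 2-fold at 2 h, 1 as reported, became 4 without scaling, 2 with median scaling, 20 with the percentile over all human miRNAs, 0 with the same probes, 2 with the brightest probe, 0 with the mean of all probes, 0 with normexp and 3 at 1.5-fold. At 4 h, 1 as reported became 2, without scaling, with that percentile and with the brightest probe, 0 with normexp and 5 at 1.5-fold. Counts outside the 95% range at 2 h, 3 as reported, became 13 without scaling, 20 with that percentile, and 1 with the same probes or the mean of all probes. At 4 h, 5 became 11 and 10 under these scalings, and 3 with median scaling, the same probes, the strict same-probe sum or the brightest probe. They could not be computed with normexp, which gives no error.

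Between the controls, 3 past 2-fold became 0 with the same probes, their strict form, the brightest probe, the mean of all probes or normexp, and 5 at 1.5-fold. The median share of 3.27% was 2.44% with the strict sum, 2.83% with the brightest probe and 9.31% with normexp. The median change of passenger over guide at 2 h was 0.37 with normexp. The ratio of miR-431* at 2 h turned positive, at 3.65 with that percentile, 0.40 with the same probes, 0.65 with the brightest probe, 0.42 with the mean of all probes and 0.42 with normexp. The ratio of miR-194* at 4 h stayed negative, from -1.73 to -0.68. The value of -0.68 is that of normexp, with which the passengers' median at 4 h fell further below 0, so its sign is not separate evidence. Of 445 recomputed values of 41 named ratios, 283 moved by less than 1 SE, 157 by more and 5 reversed, and 109 had another sign. The 283 include 40 values from the filter for detection on all 4 arrays and 41 from that for signals above 3 errors. These filters only leave values out and cannot move them. Causes other than these constructions were not tested. The sign of scaled ratios at 4 h depends on the scaling: 16 of 32 passengers were negative as reported, 24 with median scaling, 20 with quantile normalization and 6 without scaling, and the median over all human miRNAs shifted by -0.17 with median scaling.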
